A study of Mus musculus with 2 samples.

Results

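The small leucine-rich proteoglycans are secreted matrix proteins built around a run of leucine-rich repeats, and 10 genes of the family were taken by symbol: Dcn, Bgn, Lum, Fmod, Ogn, Aspn, Prelp, Omd, Podn and Ecm2. All 10 were found among the 19674 gene rows of the count table, and all 10 had at least 50 counts over the 2 libraries together, as did 13534 genes, called measured here. RNA came from wild-type mouse skin fibroblasts, a cell line called MDFB, of which 1 culture was given vehicle and 1 was given IL-17A, a cytokine that drives inflammation in skin. No dose, duration or number of clones behind the line was given, and the batch label was the same for the 2 libraries. With 1 library a group no difference below has a replicate check, a p-value or a standard deviation, and each interval is a 95% counting interval that leaves out variation between cultures. Where a gene is given a pair of counts or levels, that of the vehicle library comes first.

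These proteins bind collagen fibrils, space them and set their width, and they hold growth factors in the matrix. Decorin and biglycan carry chondroitin or dermatan sulfate chains, whereas lumican, fibromodulin, osteoadherin and the product of Prelp belong to a branch known for keratan sulfate and sulfated tyrosines. In skin, decorin and lumican are known from the dermis, where mice without either have fragile skin with irregular collagen fibrils. Biglycan released from matrix is also known as a ligand of the Toll-like receptors encoded by Tlr2 and Tlr4.

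The family lies largely in chromosomal groups, as RefSeq places it on GRCm38.p6, the assembly also called mm10. Ecm2 (chromosome 13, 49504810 to 49532789), Aspn (49544443 to 49567565), Omd (49582462 to 49592612) and Ogn (49608015 to 49624501) follow each other on the plus strand within 119.7 kb. Dcn (chromosome 10, 97479500 to 97518163) and Lum (97565501 to 97572703) also lie on the plus strand, 47.3 kb apart. Prelp (chromosome 1, 133910304 to 133930102, minus strand) and Fmod (134037254 to 134048280, plus strand) are 107 kb apart. Podn (chromosome 4, 108014793 to 108031954, minus strand) and Bgn (chromosome X, 73483601 to 73495936, plus strand) have no other member nearby.

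Promoter sequence in RefSeq's GRCm38.p6 table was found for 8 of the 10 genes, all but Dcn and Lum. The 250 bases before the start site are shown 5′ to 3′ on the gene's own strand for the 6 members that were lower in the IL-17A library, and for Bgn, the most abundant member, whose level differed little. Capitals mark TATA box matches (TATAAA) and GC box matches (GGGCGG), each sought on both strands. The Prelp window precedes the start site used by the promoter table, which lies inside the RefSeq gene span.
Ecm2, chr13:49504560-49504809, strand +: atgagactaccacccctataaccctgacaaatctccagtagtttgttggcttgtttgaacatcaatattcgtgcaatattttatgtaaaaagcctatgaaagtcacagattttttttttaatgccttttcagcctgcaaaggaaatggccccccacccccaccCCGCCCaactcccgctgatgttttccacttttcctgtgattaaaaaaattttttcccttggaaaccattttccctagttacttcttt
Aspn, chr13:49544193-49544442, strand +: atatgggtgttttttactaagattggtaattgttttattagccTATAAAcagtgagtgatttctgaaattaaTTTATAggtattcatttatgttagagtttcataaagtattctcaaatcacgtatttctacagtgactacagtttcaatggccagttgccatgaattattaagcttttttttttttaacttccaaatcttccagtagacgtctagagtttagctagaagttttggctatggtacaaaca
Omd, chr13:49582212-49582461, strand +: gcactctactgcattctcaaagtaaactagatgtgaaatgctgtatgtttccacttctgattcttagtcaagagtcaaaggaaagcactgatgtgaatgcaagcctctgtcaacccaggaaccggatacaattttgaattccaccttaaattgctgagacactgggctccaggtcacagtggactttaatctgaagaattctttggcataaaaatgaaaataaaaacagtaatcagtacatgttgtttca
Ogn, chr13:49607765-49608014, strand +: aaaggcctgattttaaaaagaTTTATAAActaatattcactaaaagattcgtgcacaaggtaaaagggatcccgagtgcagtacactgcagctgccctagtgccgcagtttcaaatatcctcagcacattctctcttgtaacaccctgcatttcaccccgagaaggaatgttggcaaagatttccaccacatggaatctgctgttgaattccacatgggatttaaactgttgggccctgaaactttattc
Prelp, chr1:133921402-133921651, strand -: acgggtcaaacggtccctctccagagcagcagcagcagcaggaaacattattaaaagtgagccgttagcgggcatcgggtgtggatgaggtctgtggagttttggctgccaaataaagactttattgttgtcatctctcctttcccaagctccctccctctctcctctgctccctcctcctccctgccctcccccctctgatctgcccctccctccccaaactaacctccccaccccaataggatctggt
Fmod, chr1:134037004-134037253, strand +: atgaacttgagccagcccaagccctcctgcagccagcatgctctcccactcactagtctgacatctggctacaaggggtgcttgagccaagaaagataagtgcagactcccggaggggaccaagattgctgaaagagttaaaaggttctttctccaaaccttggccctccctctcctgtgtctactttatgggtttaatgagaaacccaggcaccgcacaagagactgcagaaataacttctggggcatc
Bgn, chrX:73483351-73483600, strand +: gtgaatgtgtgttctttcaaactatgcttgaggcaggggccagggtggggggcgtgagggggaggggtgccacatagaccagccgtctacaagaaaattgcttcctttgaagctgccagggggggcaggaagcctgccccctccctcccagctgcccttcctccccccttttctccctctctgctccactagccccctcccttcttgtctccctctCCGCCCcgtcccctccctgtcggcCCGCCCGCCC

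Dcn stood apart from the rest of the family. Decorin, its product, binds collagen and TGF-beta and dampens several growth factor receptors. Dcn had 17022 counts in vehicle-treated cells and 96320 in IL-17A-treated cells, or 681 and 4186 CPM (counts per 1000000 of the scaled library size). Dcn was thus 6.15-fold (interval 6.05 to 6.25) higher in the IL-17A library, above 99.0% of all measured genes by its log2 ratio of 2.62. By count it was the 123rd gene of the vehicle library and the 15th of the IL-17A library. It was the only member of the 10 to be at least 2-fold higher, the limit used here to call a gene, which 5.19% of all measured genes passed in that direction.

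In the other direction, 6 of the 10 members were at least 2-fold lower with IL-17A, against 3.69% of all measured genes. The median log2 ratio over the 10 members was -1.17, and over all measured genes it was 0.00. With a minimum of 200 counts, which leaves out Ecm2 and Omd, the members' median was -0.67. Among the 8 members with at least 1000 summed counts, 1 was higher and 4 were lower, against 4.06% and 1.53% of the 7641 genes of that abundance. In a bulk culture fewer cells of a type and less RNA per cell cannot be told apart.

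**Figure D1:**
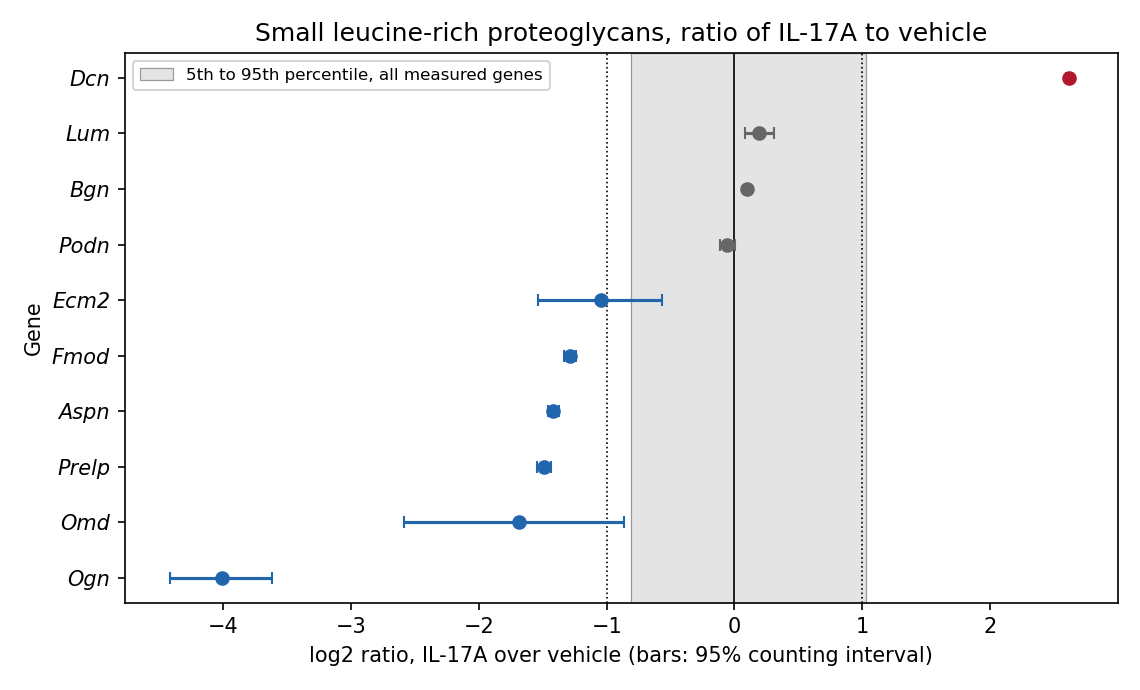
Log2 ratio of the IL-17A library over the vehicle library for each member, with 95% counting intervals, dotted lines at 2-fold, and a grey band for the 5th to 95th percentile of all measured genes (-0.81 to 1.03). Dcn stands at 2.62, Lum, Bgn and Podn lie inside the band, and 6 members lie at or below -1.04, of which Ecm2 and Omd have intervals that cross the 2-fold line.

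Ogn showed the widest difference of the family. It encodes osteoglycin, also called mimecan, a small keratan sulfate carrier of connective tissue that is trimmed by BMP1-type proteases. With vehicle Ogn had 996 counts and with IL-17A it had 57, 39.8 and 2.48 CPM. It was 16.1-fold (interval 12.3 to 21.4) lower, and only 0.103% of measured genes had a lower log2 ratio than its -4.01.

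Aspn encodes asporin, which resembles decorin but bears a run of aspartates and no chondroitin or dermatan sulfate chain, and binds collagen and TGF-beta. It went from 16741 counts, close to Dcn with vehicle, to 5770, or 669 and 251 CPM. Its level was 2.67-fold (interval 2.59 to 2.75) lower.

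Prelp encodes a basic, heparin-binding member that anchors basement membranes to collagen. It had 12043 and 3942 counts, 482 and 171 CPM, and was 2.81-fold (interval 2.71 to 2.91) lower. Fmod, for fibromodulin, a collagen-binding regulator of fibril assembly in tendon and skin, had 12217 and 4609 counts, 489 and 200.3 CPM. Its difference was 2.44-fold (interval 2.36 to 2.52) lower, and its interval and those of Prelp and Aspn lay wholly beyond 2-fold. The counting intervals of Fmod and Aspn did not overlap, and those of Aspn and Prelp did.

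The remaining pair of lower members was scarce. Omd, for osteoadherin, a cell-binding proteoglycan best known from bone, had 56 and 16 counts and was 3.22-fold (interval 1.82 to 6.01) lower. Ecm2, a matrix protein with leucine-rich repeats near those of decorin, had 121 and 54 counts and was 2.06-fold (interval 1.48 to 2.90) lower. Both intervals reach inside 2-fold, so that at this depth the size of these differences is loosely set.

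Bgn, Lum and Podn lay within 2-fold. Bgn had 220301 and 217247 counts, 8809 and 9441 CPM, the 4th and the 3rd highest count of any gene in those libraries, at 1.07-fold (interval 1.07 to 1.08) higher. Across other scalings the log2 ratio of Bgn lay between 0.01 and 0.10, and 3 of these values fell outside its counting interval. Lum, which encodes the fibril-spacing proteoglycan lumican, had 1275 and 1342 counts, 51.0 and 58.3 CPM, and was 1.14-fold (interval 1.06 to 1.24) higher. Podn, for podocan, a collagen-binding member of a more distant class, had 4782 and 4233 counts, 191 and 184 CPM, a log2 ratio of -0.06 (interval -0.12 to 0.00). The intervals of Lum and Bgn overlapped each other.

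Levels of different genes were compared per kilobase of the longest coding transcript in GENCODE M21. With vehicle, Bgn led at 3642 CPM per kilobase, followed by Dcn at 387, Aspn at 287, Fmod at 157, Prelp at 133, Podn at 60.3, Lum at 20.8 and Ogn at 15.5. Ecm2 and Omd closed the order at 1.35 and 0.996 CPM per kilobase, with overlapping counting intervals. Lumican's transcript was thus a minor one in these cells: Dcn stood 18.6-fold above Lum per kilobase with vehicle and 99.9-fold above it with IL-17A.

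In the IL-17A library the order per kilobase ran Bgn at 3903, Dcn at 2381, Aspn at 108, Fmod at 64.2, Podn at 58.0, Prelp at 47.4 and Lum at 23.8. Ogn, Ecm2 and Omd followed at 0.965, 0.653 and 0.309 CPM per kilobase, and the counting intervals of neighbours among these 3 overlapped. Prelp and Podn had changed places, and Dcn was 22.1-fold above Aspn per kilobase where it had been 1.35-fold above it with vehicle. The step from Bgn to Dcn narrowed from 9.41-fold to 1.64-fold. With the shortest full coding transcript as the length, which is shorter for Bgn, these steps were 14.5-fold and 2.52-fold, and Omd stood just above Ecm2 with vehicle.

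**Figure D2:**
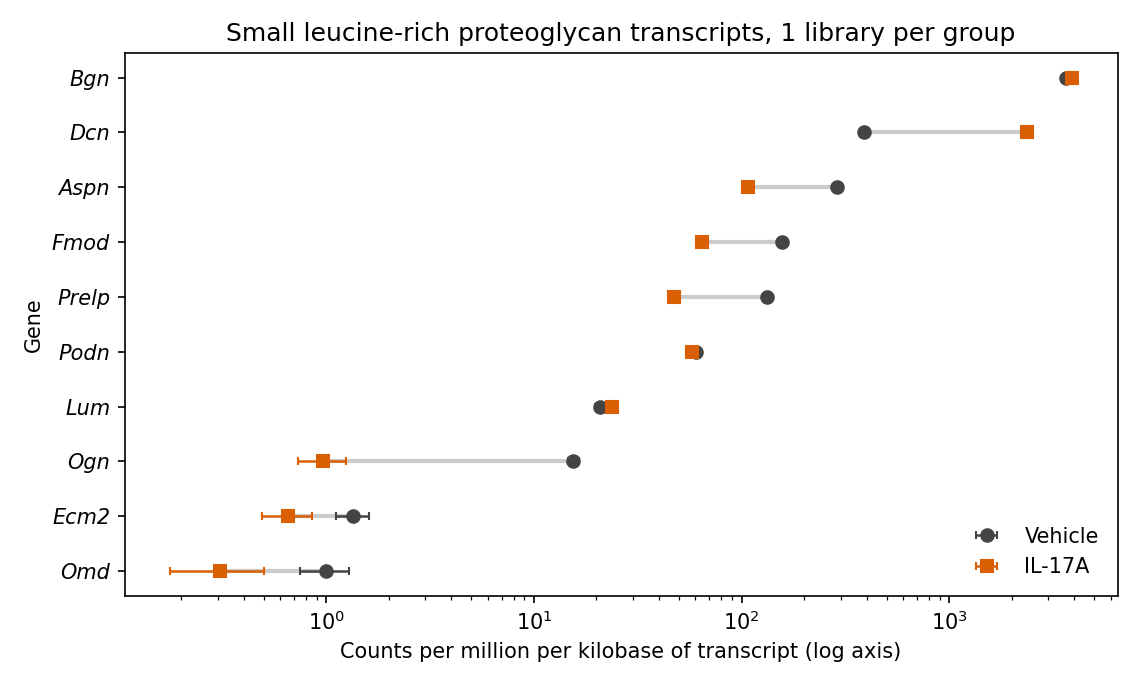
Level of each member in the vehicle library (circles) and the IL-17A library (squares) in CPM per kilobase of transcript on a log axis, with 95% Poisson intervals and a grey line joining the libraries. Dcn goes from 387 to 2381, nearer to Bgn at 3903, while Aspn, Fmod, Prelp and Ogn lie to the left with IL-17A.

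The sum over the family hid these opposite differences. Together the 10 members held 1.17% of the vehicle library's counts and 1.42% of the IL-17A library's, and their summed level was 1.27-fold (interval 1.26 to 1.28) higher in the IL-17A library. Without Dcn the sum was 0.960-fold, slightly lower with IL-17A, and without Bgn it was 1.94-fold higher. The 8 members other than these summed to 1929 CPM with vehicle and 870 with IL-17A, 2.22-fold (interval 2.18 to 2.25) lower. Per kilobase, Bgn made up 77.4% of the family with vehicle and 59.3% with IL-17A, and Dcn 8.23% and 36.1%. Aspn, Fmod and Prelp went from 6.11%, 3.33% and 2.83% of the family to 1.63%, 0.975% and 0.719%.

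**Figure D3:**
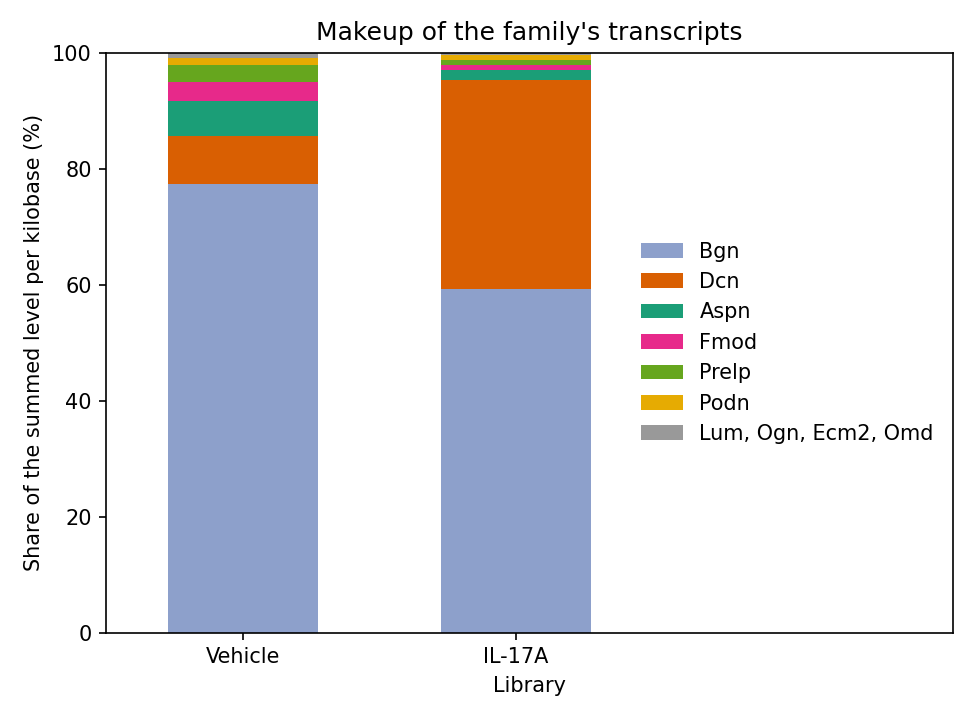
Share of each member in the family's summed level per kilobase in each library, as stacked bars from 0 to 100%. The share of Dcn is 8.23% with vehicle and 36.1% with IL-17A, and that of Bgn is 77.4% and 59.3%.

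Members that lie together were all at least 2-fold lower on chromosomes 13 and 1, while on chromosome 10 Dcn was called higher and Lum lay within 2-fold. All 4 genes of the chromosome 13 group were at least 2-fold lower, from -1.04 for Ecm2 to -4.01 for Ogn on the log2 scale. The intervals of the scarce Ecm2 and Omd reach inside 2-fold. Their summed level, that of the 4 genes, was 2.80-fold (interval 2.71 to 2.88) lower. This sum mostly follows Aspn, which held 16741 of the group's 17914 counts with vehicle and 5770 of its 5897 with IL-17A. Both Prelp and Fmod were lower, 2.61-fold (interval 2.55 to 2.68) in sum. Dcn and Lum, which are next to each other, had the same sign and differed by 2.43 on the log2 scale. Of the family's remaining genes at these places, Optc, which encodes opticin of the eye and lies 0.615 kb from Prelp, had 52 and 32 counts and a log2 ratio of -0.58, and Kera, for keratocan of the cornea, next to Lum, had 16 and 6 counts, under the minimum.

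Few other genes around the members passed 2-fold, as few of all measured genes did. Within 250 kb of a member, 25 other genes were measured, Optc among them, with a median log2 ratio of -0.03. In this group 24 lay within 2-fold, 1 was higher and none was lower, against 5.19% and 3.69% of all measured genes. Of the 25 neighbours, 8 surround Podn and 6 surround Bgn, members that themselves lay within 2-fold. None was measured around Dcn and Lum. The neighbours of lower members were 4 on chromosome 1, from -0.58 to 0.24 on the log2 scale, and 7 on chromosome 13, from -0.35 to 1.35. The highest was Fgd3, an exchange factor for the GTPase Cdc42, with 715 and 1675 counts, at 2.55-fold higher, and Cenpp, a centromere protein gene on the opposite strand to the 4 members, stood at 0.27 with 111 and 123 counts. Cenpp shares 7 exonic bases with Aspn, and Prelp shares 350 with an antisense transcript, Gm15851, for which no row was analysed here. Without a known strand setting, reads from such stretches cannot be assigned.

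**Figure D4:**
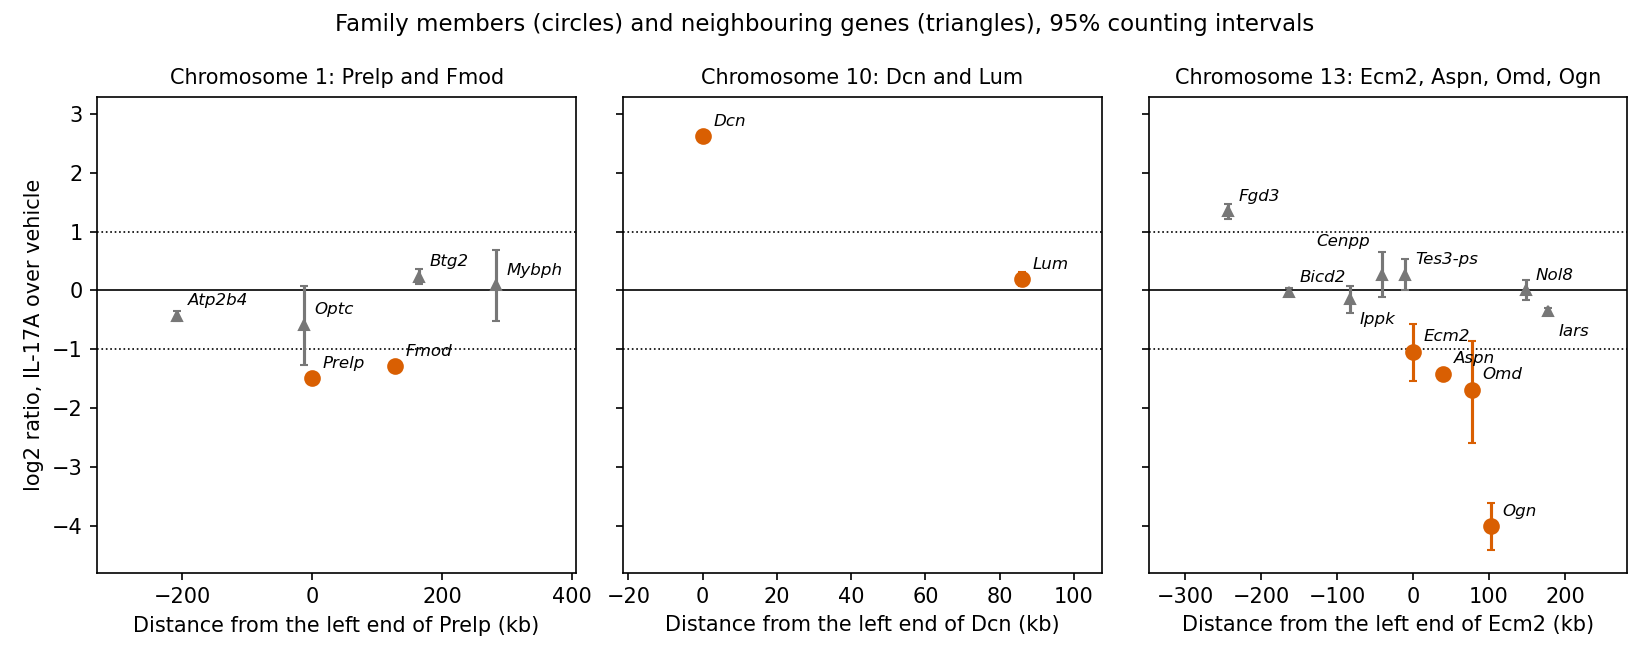
Log2 ratio of IL-17A over vehicle against distance in kilobases along chromosomes 1, 10 and 13, for members (circles) and measured neighbours (triangles), with 95% counting intervals and dotted lines at 2-fold. On chromosome 13 the 4 members lie from -1.04 to -4.01, and 6 of the 7 neighbours lie within 2-fold, as do most measured genes.

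Promoter GC content was lower in the windows of the 6 lower members than in those of Bgn and Podn, which lay within 2-fold. Dcn, the higher member, and Lum, which also lay within 2-fold, had no window to compare. Over the 300 bases from 250 before to 50 after the start, the GC content was 31.0% for Aspn, 37.7% for Omd, 41.0% for Ecm2 and 42.3% for Ogn, the chromosome 13 group. It was 51.0% for Fmod and 55.3% for Prelp, but 63.7% for Bgn, and Podn had windows of 77.0% and 63.0%, against a median of 52.7% over all 32851 windows. When the measured genes were divided at the quartiles of promoter GC, all 6 lower members lay in the lowest of the 4 groups, Prelp at its upper limit, in which 5.08% of 2540 genes were at least 2-fold lower. In the groups above it this share was between 2.64% and 3.31%. The share at least 2-fold higher was 7.76% in the lowest group and between 3.66% and 4.56% in those above. The part of base composition in the difference was not tested.

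Sequence matches were few. TATAAA occurred in Aspn and Ogn only, at positions -207 and -178 of Aspn and, overlapping each other, at -229 and -227 of Ogn, counted from the start site, and 13.6% of all windows held it. GGGCGG was found in Bgn, Podn and Ecm2, and in 35.7% of all windows. No member window held AP-1 (TGANTCA), the NF-kB consensus or the C/EBP forms TTGCGCAA, TTGCACAA and TTGCGTAA on either strand, which 7.81%, 4.51% and 1.36% of all windows held. These counts describe letters in short windows and say nothing of binding, and Dcn and Lum had no window among them.

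Other genes of the family, outside the 10, were scarce or within 2-fold with 1 exception. Of 8 such genes, 6 were in the count table and 4 were measured. Among these 4, 1 was at least 2-fold higher and none was lower, against 5.19% and 3.69% of all measured genes. Podnl1, a relative of podocan, had 246 and 617 counts and was 2.73-fold (interval 2.35 to 3.17) higher. Tsku, for tsukushi, which modulates BMP and Wnt signals, had 1336 and 2023 counts, 1.65-fold (interval 1.54 to 1.76) higher. Chadl and Optc were the others measured.

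Most of the enzymes that build chondroitin and dermatan sulfate on decorin and biglycan lay within 2-fold. Of 22 measured, 18 did, 3 were higher and 1 was lower, against 5.19% and 3.69% of all measured genes. Their median log2 ratio was 0.16. Chst11, which sulfates chondroitin at the 4 position of galactosamine, had 647 and 3813 counts and was 6.41-fold (interval 5.89 to 6.97) higher. Xylt1, which attaches the first xylose of the chain to the core protein, had 440 and 1264 counts, 3.12-fold (interval 2.80 to 3.49) higher. Chst15, which adds a further sulfate, had 1424 and 3371 counts, 2.57-fold higher, and Chst3, from 49 to 20 counts, was 2.25-fold lower on few counts. For keratan sulfate and tyrosine sulfation, the modifications of the fibromodulin branch, all 11 measured genes lay within 2-fold, as did most genes, with a median of 0.07. The widest were the sulfotransferases Chst1, at 0.82, and Chst2, at 0.63 on the log2 scale.

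Proteases known to cut these proteins, listed together with Pcolce, which encodes a protease enhancer, included many that were higher with IL-17A. Of 15 measured, 7 were higher and 2 were lower, against 5.19% and 3.69% of all measured genes. The other 6 lay within 2-fold, and the median log2 ratio was 0.96. Stromelysin Mmp3, which cuts decorin, had 839 and 92420 counts, and the collagenase Mmp13, which cuts biglycan and fibromodulin, had 424 and 7125. The gelatinase Mmp2, already abundant with vehicle at 18249 counts, had 45097 with IL-17A, 2.69-fold higher. Mmp9, Mmp8 and Mmp12 were 41.9-fold, 8.96-fold and 5.27-fold higher, and the aggrecanase Adamts4 2.80-fold higher. Adamts1 and Adamts5 were 3.20-fold and 2.54-fold lower. These are transcript levels and give no measure of cleavage.

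Receptors and soluble partners went both ways. Of 23 measured, 4 were higher and 5 were lower, against 5.19% and 3.69% of all measured genes, and the median log2 ratio was 0.18. Tlr2, a receptor for free biglycan, had 518 and 3854 counts and was 8.09-fold (interval 7.38 to 8.88) higher, and Tlr4, its companion in that role, had 251 and 490 counts, 2.12-fold (interval 1.82 to 2.48) higher. P2rx7, a channel linked to biglycan signalling, had 42 and 95 counts, 2.46-fold higher, and the collagen receptor subunit Itga2 had 17 and 62, 3.96-fold higher. Tgfb2, a growth factor that decorin binds, had 526 and 148 counts, 3.27-fold lower, and Bmp4 had 98 and 45 counts, which put it at the limit itself (interval of the fold 1.39 to 2.92). C1qa, C1qb and C1qc, chains of the complement protein that binds biglycan and decorin, were 3.57-fold, 3.17-fold and 4.27-fold lower. C1q is mainly a macrophage product, and the 5 measured of the 6 leukocyte markers all lay within 2-fold, with a summed level of 192 CPM with vehicle and 263 with IL-17A, most of it Lyz2 at 153 and 227 CPM. The T-cell marker Cd3e had no count in either library, and the part of leukocytes in the C1q difference was not tested.

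Among the collagens and fibril partners that these proteins bind, 14 of 17 measured genes were below 0 on the log2 scale, against 49.7% of all measured genes. At least 2-fold lower were 3 of the 17, against 3.69%, and none was at least 2-fold higher, against 5.19%. Their median was -0.53. Col6a3, a chain of the microfibrillar collagen that decorin and biglycan bind, had 61099 and 18410 counts, 3.05-fold lower. Eln, for elastin, had 7699 and 319 counts, and Tnxb, a tenascin that binds decorin, had 294 and 105, 2.58-fold lower. The level of Dcn relative to that of Col1a1 therefore differed more between the libraries than Dcn did alone, since Col1a1 was 1.56-fold lower.

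**Figure D5:**
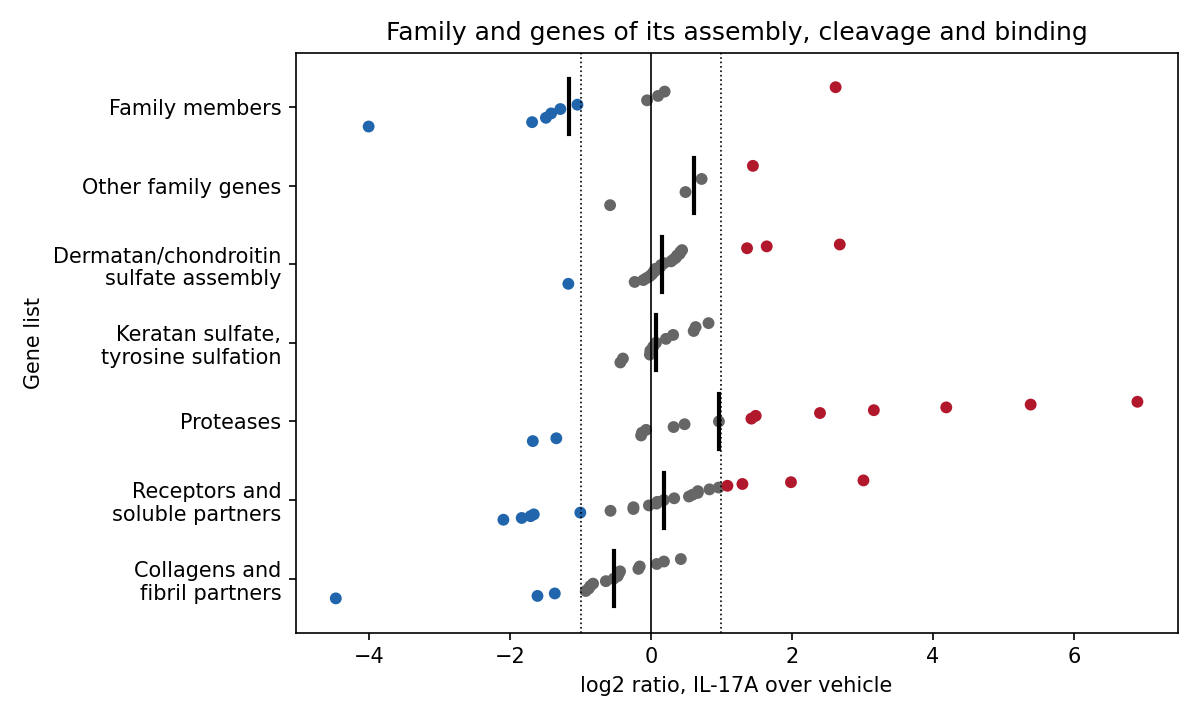
Log2 ratio of IL-17A over vehicle for every measured gene of the family and of the 6 lists of related genes, coloured red for at least 2-fold higher, blue for at least 2-fold lower and grey for within 2-fold, with a black bar at each median. The family's median is -1.17, that of the protease list, which includes the enhancer Pcolce, is 0.96 and that of the collagens and fibril partners is -0.53.

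Fibroblast markers were present throughout: all 8 were measured, 7 within 2-fold, with Pdgfra at 929 and 893 CPM and Thy1 at 1498 and 1501 CPM. Twist2, a dermal fibroblast transcription factor, was the exception at 2.23-fold higher. Of 4 mural cell markers, the 3 measured were all at least 2-fold lower, against 3.69% of all measured genes. Cspg4, Myh11 and Notch3 were 2.50-fold, 7.50-fold and 3.81-fold lower, and Rgs5 had 21 and 6 counts. The mural list summed to 189 CPM with vehicle and 59.9 with IL-17A. Tendon, cartilage and bone markers summed to 53.9, 16.0 and 29.0 CPM with vehicle and to 36.3, 7.91 and 17.3 with IL-17A. The 3 tendon markers did not go one way: Tnmd, a membrane protein gene, had 1237 and 601 counts, 1.89-fold lower, the transcription factor Mkx had 72 and 198, 2.99-fold higher, and Scx had 39 and 37, with a list median of 0.04 on the log2 scale. Of the 4 cartilage markers only Sox9, a transcription factor, was measured, at 2.06-fold lower, and of the 4 bone markers only Runx2, within 2-fold at -0.72. The part of such cells or programmes in the lower levels of Aspn, Fmod, Prelp, Omd and Ogn was not tested. Keratinocyte, endothelial, melanocyte, Schwann and adipocyte markers each summed to at most 12.5 CPM in either library.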

How the data were processed

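Total RNA from 2 cultures, 1 per group, was made into stranded mRNA libraries, per the labels' protocols. STAR, featureCounts and mm10 are named in the submitters' processing notes; their versions, the annotation, the strand setting and how multimapping reads were treated are not stated in the labels. The authors deposited raw counts for each gene symbol, with totals of 24427027 for vehicle and 23559416 for IL-17A.

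TMM scaling of library sizes was done with edgeR 4.0.16 under R 4.3.3. With 1 library a group no test could be run, so the ratio of scaled counts was taken for genes with at least 50 summed counts, and a gene was called at 2-fold. Ratio intervals are exact 95% Clopper-Pearson intervals, from the share of a gene's counts in the IL-17A library, and level intervals are exact Poisson intervals. Both cover counting error only, as there is 1 library a group and each read is taken as independent. PCR duplicates cannot be recognised without molecular identifiers, so they count as separate reads and the intervals can be too narrow. The calculation was tested on simulated Poisson counts with known folds. These held no variation between cultures, so they checked the arithmetic and not the calls. Coordinates and promoters are from RefSeq GRCm38.p6, and lengths from GENCODE M21.

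Each member is named, and from each list all genes at 2-fold, or the 2 widest where fewer passed. Genes named outside this rule, such as Kera, Cenpp, Chadl, Col1a1 and the markers, were picked with their values in view. The members and lists were chosen with earlier results of these data known. Alternatives were other scalings, minimums, folds, a prior count of 2 and sums without single members.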

Additional observations from a re-analysis of the deposited data

How the results depend on the processing

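With 1 library a group, no library could be left out, and nothing here measures variation between cultures. The 1 higher member was found under every scaling, minimum and fold tried, and the 6 lower members under every scaling and at 1.5-fold, while a minimum of 200 counts, which drops Ecm2 and Omd, left 4. At 3-fold the lower members were 2, Omd and Ogn. The median log2 ratio was -0.67 with a minimum of 200 counts, over 8 members.

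The summed level ratio was 1.24 with upper-quartile scaling, 1.21 with total counts and 1.19 with total counts without the genes over 1%. It was 1.40 when summed per kilobase, 1.94 without Bgn, and below 1 at 0.960 without Dcn and at 0.451 without Bgn and Dcn. The last 2 were chosen after seeing the data, as were the shorter transcript lengths and the limit of 1000 counts.

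Of 50 alternative log2 ratios of single members, 36 stayed inside the counting interval, 14 left it, and 0 changed direction past 2-fold. The 14 belonged to Dcn, Bgn, Fmod, Aspn, Prelp and Podn. Across scalings a member moved from its main log2 ratio by at most 0.09. A prior count of 2 moved Omd most, by 0.12. No paired analysis was possible because each group holds 1 library.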
